A study of Mus musculus with 18 samples.

Results

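The variable (V) segments of the mouse immunoglobulin heavy chain locus, named Ighv, were followed in RNA sequencing of the choroid plexus, which lines the brain ventricles and secretes cerebrospinal fluid. All rows of the count table whose name starts with Ighv and a digit were taken, and the segments described are the 88 of these 183 rows whose counts summed to 50 or more over the 18 libraries, out of 50584 genes in the table. The samples were MRL/lpr mice at 16 weeks of age (6 libraries) and at 12 weeks (6), and MRL/+ mice at 16 weeks (3) and at 12 weeks (3). The lpr allele, an insertion in the death receptor gene Fas, gives MRL/lpr mice a lupus-like disease, and MRL/+ mice share their background without that allele. The study deals with tertiary lymphoid structures in this tissue in lupus. The labels do not say whether the libraries of a group came from separate animals or pools, so p-values measure the spread between these libraries.

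A heavy chain is made in a developing B cell when 1 V segment is joined by the Rag1 and Rag2 recombinase to a diversity and a joining segment, in front of the constant region. The joined V segment is then transcribed from its own promoter in B cells and, at very high levels, in the plasma cells that secrete antibody. All the descendants of a B cell carry the same joined V segment, so the V segments in a tissue reflect which B and plasma cell clones are there, and a large clone weighs more. Segments are grouped into families by sequence. Each has a short leader exon and a V exon with an intron between them.

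The segments all lie on the minus strand of chromosome 12 in GRCm38, and the 88 members run from 113578504 to 116010093, a stretch of 2431.6 kb. Their exons measured between 347 and 437 bases. The start, end and strand of all 183 rows were equal to those in GENCODE M21, which marks 78 members as genes and 10 as pseudogenes, against 113 and 70 of all rows. Of the other rows, 54 had no count in any library and 41 had between 1 and 49. Just inside the limit were Ighv1-85 with 50 counts, Ighv2-4 with 53 and Ighv2-3 with 54, and just outside it the pseudogene Ighv4-2 with 37 and Ighv1-67 and Ighv1-50 with 34 each. The members held 76817 of the 77247 Ighv counts (99.44%). Of those, 76750 were in MRL/lpr libraries and 67 in MRL/+ libraries, so the sum that chose the members was set by MRL/lpr.

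The germline coding sequences of the 5 members with the highest mean share of Ighv counts in MRL/lpr are shown because the usage described here turns on them. They are the reference sequences of GRCm38 from the GENCODE M21 transcripts, with bases numbered from the start codon on the minus strand, and not the sequences of the transcripts in these mice. Ighv1-14 lies at chr12:114646572-114647056, Ighv1-82 at chr12:115952538-115953005, Ighv6-6 at chr12:114434788-114435244, Ighv14-4 at chr12:114176438-114176867 and Ighv5-9 at chr12:113661769-113662293. The first 300 bases of Ighv1-14 are shown, and the others from base 58 on, behind most or all of the leader. Capitals mark the stop codon of Ighv1-14, which GENCODE annotates as a pseudogene. In the others they mark the last cysteine codon, which ends the framework before the joined region of the antigen binding site.
Ighv1-14: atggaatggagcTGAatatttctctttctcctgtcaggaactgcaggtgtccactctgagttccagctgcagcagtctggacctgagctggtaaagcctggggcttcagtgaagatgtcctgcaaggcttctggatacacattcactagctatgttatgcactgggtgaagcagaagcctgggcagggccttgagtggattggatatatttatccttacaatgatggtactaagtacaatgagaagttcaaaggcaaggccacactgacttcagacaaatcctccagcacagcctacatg
Ighv1-82: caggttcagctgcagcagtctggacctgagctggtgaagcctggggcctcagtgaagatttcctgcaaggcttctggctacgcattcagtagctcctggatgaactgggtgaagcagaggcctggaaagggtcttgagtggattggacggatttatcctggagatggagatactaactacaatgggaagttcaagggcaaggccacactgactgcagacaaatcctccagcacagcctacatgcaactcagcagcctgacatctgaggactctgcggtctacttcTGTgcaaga
Ighv6-6: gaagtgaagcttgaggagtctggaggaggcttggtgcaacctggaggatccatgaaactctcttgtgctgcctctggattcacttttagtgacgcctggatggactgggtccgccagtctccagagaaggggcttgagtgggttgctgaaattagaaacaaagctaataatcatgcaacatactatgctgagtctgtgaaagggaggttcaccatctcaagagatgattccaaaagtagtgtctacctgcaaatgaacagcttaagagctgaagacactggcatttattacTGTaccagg
Ighv14-4: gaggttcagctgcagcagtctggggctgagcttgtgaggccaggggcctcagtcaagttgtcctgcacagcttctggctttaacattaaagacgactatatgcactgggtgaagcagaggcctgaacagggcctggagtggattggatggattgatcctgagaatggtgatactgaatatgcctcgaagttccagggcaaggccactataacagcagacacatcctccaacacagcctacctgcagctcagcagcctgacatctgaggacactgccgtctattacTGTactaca
Ighv5-9: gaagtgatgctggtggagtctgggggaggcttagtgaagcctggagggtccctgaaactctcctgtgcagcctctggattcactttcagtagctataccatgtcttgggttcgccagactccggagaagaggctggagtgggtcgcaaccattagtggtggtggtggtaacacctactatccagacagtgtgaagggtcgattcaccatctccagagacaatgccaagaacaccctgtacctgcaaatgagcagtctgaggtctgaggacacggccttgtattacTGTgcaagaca
The stop codon of Ighv1-14 is codon 5, within the leader, and is the only stop in frame over its 351 coding bases. Over 290 aligned bases Ighv1-14 and Ighv1-82 were 87.59% identical. The closest relative of each was closer than that: Ighv1-83 for Ighv1-14 (91.38%), Ighv1-80 for Ighv1-82 (96.21%), Ighv6-5 for Ighv6-6 (92.41%), Ighv14-1 for Ighv14-4 (97.24%) and Ighv5-6 for Ighv5-9 (95.17%). The share of a member's 50-base windows that occur in no other Ighv row had a median of 77.4%, from 7.49% to 100%. Counts of close relatives are therefore uncertain between them, all the more because the reference is the genome of C57BL/6J and the V alleles of MRL mice can differ from it.

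The libraries were alike in depth, with 11164284 to 14602253 counts each. Ttr, the thyroid hormone carrier of choroid plexus epithelium, had at least 1616333 counts in every library, and the epithelial genes Folr1, Kl and Aqp1 had at least 9335, 19493 and 3731. Counts of Fas take in whole transcripts and those cut short by the lpr insertion, so they do not check the strain labels. Fas had 14 to 66 counts in MRL/lpr at 16 weeks and 16 to 67 at 12 weeks, against 23 to 28 in MRL/+ at 16 weeks and 14 to 21 at 12 weeks. Genes of neighbouring tissues were uneven: the 8 skeletal muscle genes summed to 564 CPM (counts scaled to the depth of the library) in MRL/+ at 16 weeks replicate 1 and to between 2.54 and 4.68 CPM elsewhere. The 6 cerebellar genes were highest in MRL/+ at 12 weeks replicate 1 (351 CPM), and the 8 pineal genes in MRL/lpr at 12 weeks replicates 4 and 1 (58.3 and 52.6 CPM), and 6 pituitary genes summed to between 18.2 and 88.1 CPM. Of these 4 lists, edgeR tested 2 muscle, 5 pineal, 6 cerebellar and 4 pituitary genes. It called the 2 muscle genes, both lower in MRL/lpr than in MRL/+ at 16 weeks, and no other gene in the comparisons below. Among all genes, 11.1% were called between the strains at 16 weeks and 6.36% at 12 weeks. Between the ages 0.0361% were called in MRL/lpr and 0% in MRL/+. With so few genes tested, the lack of other calls is no result about carry-over. Counts of members called between the strains are given with and without the 4 libraries named. Without them each age keeps fewer MRL/+ libraries, and 12 weeks fewer MRL/lpr libraries. Carry-over and group size therefore cannot be told apart in those fits.

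Ighv transcripts were plentiful in every MRL/lpr choroid plexus and scarce in MRL/+. All Ighv rows together had 15582, 12920, 5242, 18307, 1345 and 279 counts in MRL/lpr replicates 1 to 6 at 16 weeks, and 4134, 2758, 2078, 2635, 2139 and 9759 at 12 weeks. The 16-week MRL/+ libraries had 10, 12 and 11 counts, and the 12-week ones 7, 22 and 7. The lowest MRL/lpr library thus had more Ighv counts than all 6 MRL/+ libraries, which held 69 together. Scaled to depth, the 88 members summed to 647 ± 540 CPM in MRL/lpr at 16 weeks and 288 ± 196 at 12 weeks (SD, n = 6 each), and to 0.948 ± 0.196 CPM in MRL/+ at 16 weeks and 0.880 ± 0.731 at 12 weeks (SD, n = 3 each). The ratio of the MRL/lpr to the MRL/+ mean was 682 at 16 weeks and 327 at 12 weeks, and at 12 weeks it was 629 without MRL/+ replicate 2. No test was made, since the members were chosen by these sums. In whole tissue, more B lineage cells and more immunoglobulin RNA per cell cannot be told apart.

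**Figure D1:**
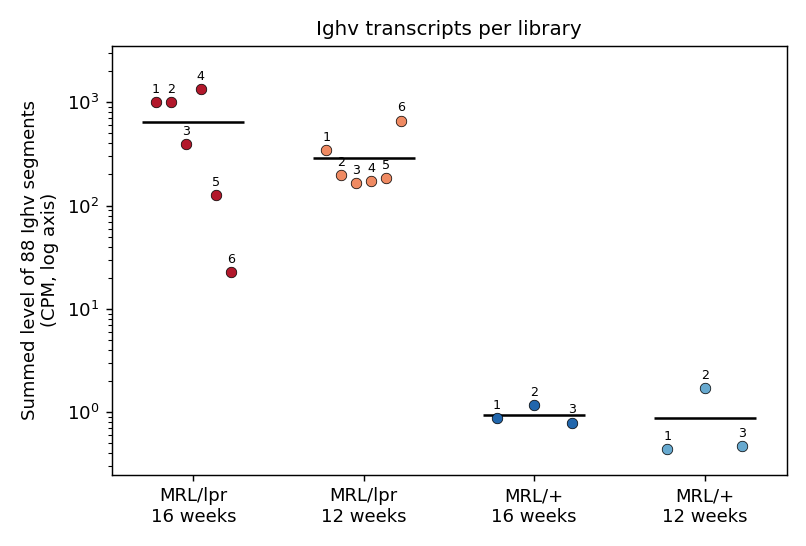
Summed level of the 88 Ighv segments in CPM, on a log axis, with 1 point per library numbered by replicate and a line at the mean of each group. MRL/lpr libraries run from 22.8 to 1344 CPM, and MRL/+ libraries from 0.445 to 1.72 CPM.

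Within MRL/lpr the level varied most at 16 weeks. The summed level ran from 22.8 CPM in replicate 6 through a median of 695 to 1344 CPM in replicate 4, a spread that covers the whole range seen at 12 weeks, where the lowest was 164, the median 192 and the highest 665 CPM. The ratio of the 16-week to the 12-week mean was 2.25, and the groups overlapped. The heavy chain constant regions moved with the V segments. There were 13.99 to 21.7 Ighv counts per 100 constant region counts in the MRL/lpr libraries and 7.29 to 15.6 in the MRL/+ libraries. Ighm, the constant region of IgM, made up 2.02 to 12.1% of the constant region counts in MRL/lpr, against 24.1 to 53.2% in MRL/+, and these ranges did not overlap. Igha, the constant region of IgA, made up 7.05 to 45.4% in MRL/lpr and 15.9 to 28.4% in MRL/+.

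MRL/lpr choroid plexus held many V segments at once, with no segment in the majority in any library. In the 16-week libraries 44 to 110 segments had at least 1 count (median 94.5), and in the 12-week libraries 73 to 93 (median 80). These numbers depend on Ighv depth: the 44 came from 279 counts in replicate 6 and the 110 from 18307 in replicate 4. Of the 88 members, 28 were detected in all 12 MRL/lpr libraries, 65 in at least 10 and 4 in fewer than 6. Only 43 members were detected in MRL/lpr at 16 weeks replicate 6, which limits the number found in all 12. The 4 were Ighv3-3 and Ighv3-5 (5 libraries each), Ighv7-4 (4) and Ighv1-75, whose 89 counts all came from MRL/lpr at 16 weeks replicate 3. A share of 5% of the library's Ighv counts was reached by 28 members in at least 1 library, by 14 of them in exactly 1 and by 5 in 3 or more, while 60 members never reached it. The 10 members with the highest mean share together took 40.1 ± 7.76% of Ighv counts (SD, n = 12), from 29.15 to 55.1%. Counts per exon base named the same top segment in all 12 libraries and the same 10 leading members.

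The segment on top changed from library to library, with 9 different ones in 12 MRL/lpr libraries. At 16 weeks the top segment was Ighv3-8 in replicate 1 with 15.45% of Ighv counts (95% Wilson interval 14.89 to 16.03%), Ighv6-6 in replicate 2 with 31.27% (30.48 to 32.07%) and Ighv3-6 in replicate 3 with 11.54% (10.7 to 12.43%). It was Ighv1-82 in replicates 4 and 5 with 16.21% (15.68 to 16.75%) and 14.42% (12.65 to 16.4%), and Ighv1-14 in replicate 6 with 15.05% (11.33 to 19.72%). The widest interval belongs to replicate 6, which had 279 Ighv counts. At 12 weeks it was Ighv1-14 in replicate 1 with 10.21% (9.322 to 11.17%), Ighv1-74 in replicate 2 with 12.47% (11.29 to 13.76%) and Ighv6-6 in replicate 3 with 11.69% (10.38 to 13.15%). It was Ighv2-9 in replicate 4 with 7.628% (6.675 to 8.704%), Ighv14-4 in replicate 5 with 18% (16.43 to 19.68%) and Ighv5-9 in replicate 6 with 18.38% (17.63 to 19.16%). These intervals cover counting error only, since reads amplified without molecular identifiers are not independent molecules.

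Among the MRL/lpr libraries, the highest share of a single segment was that of Ighv6-6 at 16 weeks replicate 2. Ighv6-6 had 4040 counts there, and the next segment, Ighv1-14, had 895, or 6.93%. In MRL/lpr at 12 weeks replicate 5 a pair shared the top, Ighv14-4 with 18% and Ighv2-6-8 with 17.9%, followed by Ighv2-9, and the 3 leading segments took 47.9% of the Ighv counts. The flattest library was MRL/lpr at 12 weeks replicate 4, where the 3 leading segments took 21.9%. On average the 3 leading segments took 32.8 ± 6.13% at 16 weeks and 30.5 ± 9.325% at 12 weeks (SD, n = 6 each).

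**Figure D2:**
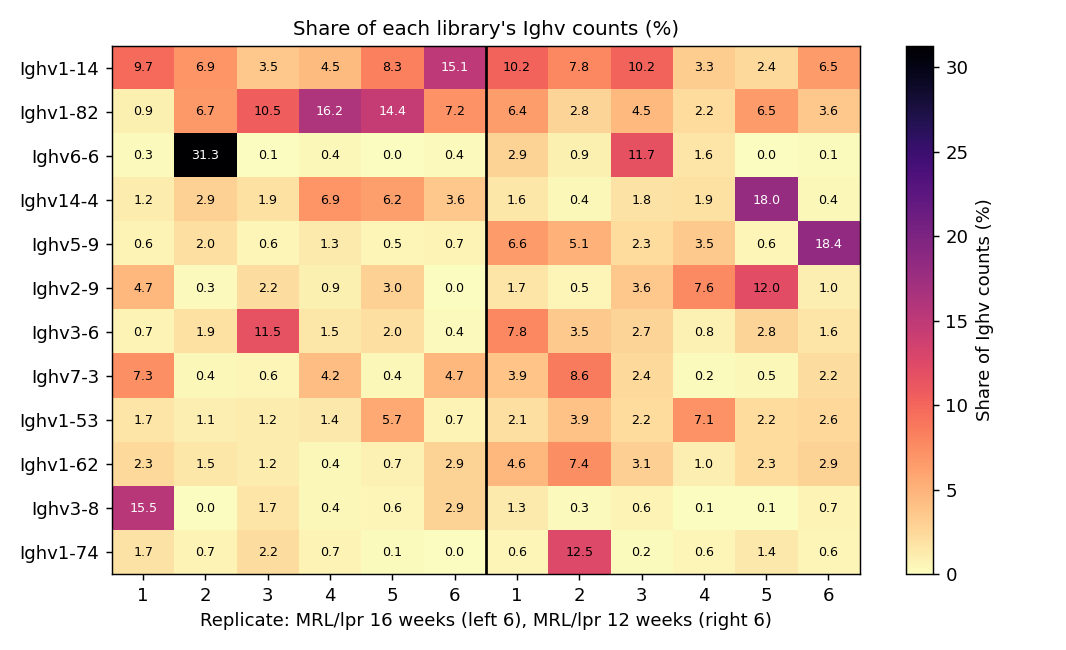
Share of each MRL/lpr library's Ighv counts, in percent, for the 10 segments with the highest mean share and the other 2 that were on top in a library; columns are replicates, 16 weeks left of the line and 12 weeks right of it. Ighv1-14 and Ighv1-82 are present in every column, while Ighv6-6 reaches 31.3% in 1 library and 11.7% in another and is at 2.88% or less in the other 10.

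The leading segments differed in how evenly they were used. Ighv1-14 and Ighv1-82, both of family IGHV1, were found in every MRL/lpr library, though the share of Ighv1-82 varied widely at 16 weeks. Ighv1-14 took 3.55 to 15.1% at 16 weeks with a median of 7.59%, and 2.38 to 10.2% at 12 weeks with a median of 7.14%. It reached 5% in 4 of 6 libraries at either age, and it was the first or second segment of 6 of the 12. Ighv1-82 took 0.899 to 16.2% at 16 weeks with a median of 8.85%, and 2.20 to 6.55% at 12 weeks with a median of 4.09%. It reached 5% in 5 of 6 libraries at 16 weeks and in 2 of 6 at 12 weeks, and the ranges overlapped. Averaged over the 12 libraries, Ighv1-14 held 7.36% and Ighv1-82 6.835% of Ighv counts, or 6.76% and 6.53% of counts per exon base.

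Ighv6-6, Ighv14-4 and Ighv5-9 were high in only a few libraries, although Ighv14-4 and Ighv5-9 were found in every MRL/lpr library. Ighv6-6 took 0 to 31.3% at 16 weeks with a median of 0.304%, and 0 to 11.7% at 12 weeks with a median of 1.23%, and 63.1% of its summed share came from 1 library. Ighv14-4 took 1.17 to 6.91% at 16 weeks with a median of 3.26%, and 0.369 to 18% at 12 weeks with a median of 1.70%. Ighv5-9 took 0.520 to 2.04% at 16 weeks with a median of 0.6825%, and 0.561 to 18.4% at 12 weeks with a median of 4.32%. The lowest share of Ighv14-4 at 16 weeks was thus above the lowest of Ighv1-82 at that age, and Ighv14-4 reached 5% in 2 of 6 libraries at 16 weeks and in 1 of 6 at 12 weeks. Of the 88 members, 17 had over 50% of their summed share in 1 library, among them the top segments Ighv3-8 (64.1%) and Ighv1-74 (58.7%) and Ighv2-6-8 (79.3%).

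The remaining leaders were spread in a similar way. Ighv2-9 was highest in MRL/lpr at 12 weeks replicate 5 with 12.0%, Ighv3-6 in MRL/lpr at 16 weeks replicate 3 with 11.5%, and Ighv7-3 in MRL/lpr at 12 weeks replicate 2 with 8.56%. Ighv1-53 was highest in MRL/lpr at 12 weeks replicate 4 with 7.14%. Ighv1-62, the other annotated pseudogene among the 10, was highest in MRL/lpr at 12 weeks replicate 2 with 7.36%. Only 42.4% of the windows of Ighv1-53 and 45.85% of those of Ighv1-62 were their own, so their counts are the least certain of the 10.

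The most used segment on average, Ighv1-14, is annotated as a pseudogene, and it was counted in all 12 MRL/lpr libraries with 1510, 895, 186, 818, 111 and 42 counts in the 16-week libraries and 422, 215, 212, 86, 51 and 632 in the 12-week ones. It had no count in MRL/+, where 0 of 69 pooled Ighv counts allows a share of up to 4.35% if the reads are independent draws. Reads of the same library are not independent, and in single MRL/+ libraries a count of 0 allows 13.6 to 42.9%. No strain difference in the share of Ighv1-14 can be read from this. The annotation rests on the reference genome, whether MRL mice carry the stop codon was not tested, and 86.7% of its 50-base windows occur in no other Ighv row. All pseudogene rows together took 7.63 to 22.2% of Ighv counts in MRL/lpr at 16 weeks and 6.11 to 19.1% at 12 weeks, against 0 to 9.09% in MRL/+. Each MRL/+ library held only 7 to 22 Ighv counts, too few to compare the strains in this share. The 10 pseudogene members spanned a wide range of use. Below Ighv1-14 with 5180 counts came Ighv1-62 with 1536, Ighv1-33 with 785 and Ighv1-70 with 711, and the other 6 had 88 to 276. The reference sequence of Ighv1-70 (chr12:115691889-115692322, minus strand) has its stop codon inside the V exon, at codon 57, unlike the leader stop of Ighv1-14. It is shown from coding base 124 to 216, with the stop codon in capitals.
Ighv1-70: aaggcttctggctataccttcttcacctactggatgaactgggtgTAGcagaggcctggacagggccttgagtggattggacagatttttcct

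V segment diversity did not differ measurably between the ages of MRL/lpr mice. It was first measured as the effective number of segments, the inverse of the Simpson index, which is the number of equally used segments that would give the same evenness. The 16-week libraries had 18.95, 8.518, 21.62, 16.68, 20.15 and 17.51 effective segments from replicate 1 to 6, and the 12-week libraries 25.36, 20.05, 22.94, 25.56, 10.4 and 16.96. The lowest value at either age belongs to a library named above, replicate 2 with Ighv6-6 at 16 weeks and replicate 5 with the pair Ighv14-4 and Ighv2-6-8 at 12 weeks. The means were 17.24 ± 4.63 and 20.21 ± 5.82 (SD, n = 6 each), a difference of -2.97 that did not pass a two-sided exact permutation test (p = 0.351; the smallest p these groups allow is 0.00217). Leaving out 1 library at a time moved the difference between -4.93 and -1.225, the last without MRL/lpr at 16 weeks replicate 2. Without the libraries highest in pineal, cerebellar and muscle genes it was -0.344 (exact permutation p = 0.9095). Among MRL/lpr that leaves out only replicates 1 and 4 at 12 weeks, which had the highest effective numbers (25.36 and 25.56). Carry-over and the loss of these values cannot be told apart.

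Richness and dominance did not differ measurably either. In a draw of 279 reads, the number in the shallowest MRL/lpr library, 49.4 ± 3.00 segments were expected at 16 weeks and 48.6 ± 5.69 at 12 weeks (difference 0.794, exact permutation p = 0.781, two-sided). The 16-week values ran from 44.0 to 52.8 and the 12-week values from 38.1 to 54.5, with MRL/lpr at 12 weeks replicate 5 the lowest. Without that library the difference was -1.315, and without the libraries highest in pineal, cerebellar and muscle genes it was 2.17. The share of the top segment was 17.3 ± 7.02% at 16 weeks and 13.1 ± 4.30% at 12 weeks (difference 4.26 percentage points, exact permutation p = 0.245, two-sided). That difference was 1.47 points without MRL/lpr at 16 weeks replicate 2 and 2.19 points without the libraries highest in pineal, cerebellar and muscle genes. These tests covered every Ighv row, so the choice of members did not enter.

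**Figure D3:**
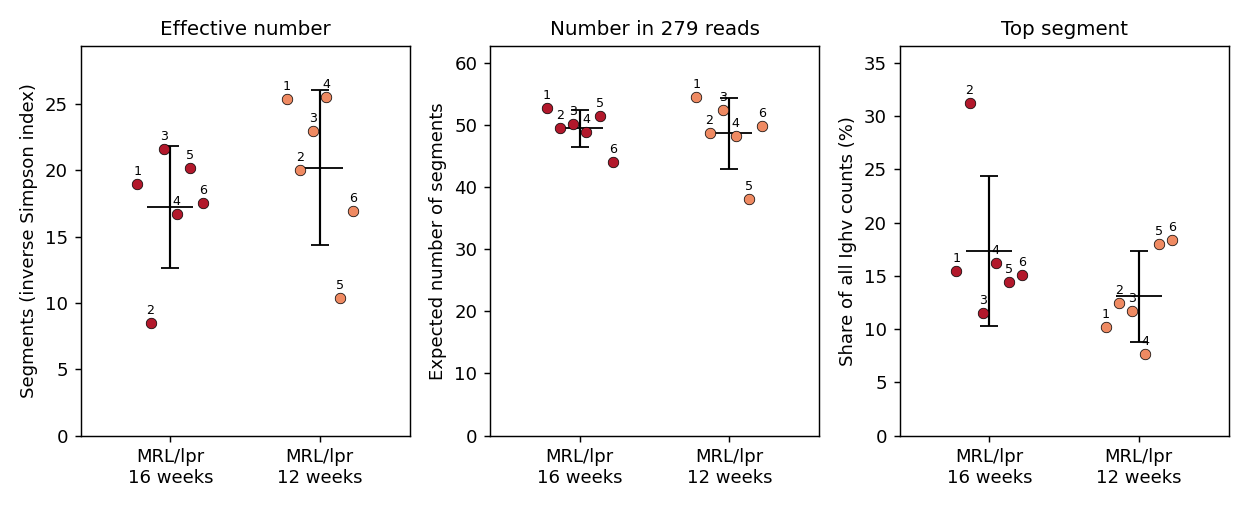
Effective number of Ighv segments, expected number of segments in 279 reads and share of the top segment in percent, for the 6 MRL/lpr libraries of each age. Points are libraries numbered by replicate and bars are means ± SD; the ages overlap in all 3 panels, and replicate 2 at 16 weeks has the lowest effective number, 8.52, and the highest top share, 31.3%.

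Libraries of one age were not measurably more alike than libraries of different ages. The Morisita-Horn overlap of segment shares, which is 0 for no shared use and 1 for equal use, averaged 0.428 over the 30 pairs of MRL/lpr libraries within an age and 0.415 over the 36 pairs between ages (difference 0.0131, one-sided exact permutation p = 0.253). Single pairs ran from 0.155 to 0.748. The most alike were replicates 4 and 5 at 16 weeks, both led by Ighv1-82. Without MRL/lpr at 16 weeks replicate 4 the difference was -0.00352, and without MRL/lpr at 12 weeks replicate 6 it was -0.00865.

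Family IGHV1, the largest in the locus, also led in use. It supplied 92 of the 183 rows and 46 of the 88 members, and took 43.75 to 71.2% of Ighv counts at 16 weeks (55.0 ± 11.2%) and 32.2 to 58.9% at 12 weeks (51.2 ± 10.1%; SD, n = 6 each). IGHV5, with 21 rows and 9 members, took 7.40 ± 2.81% at 16 weeks and 12.9 ± 8.49% at 12 weeks. IGHV14, which has only 4 rows, all of them members, took 9.91 ± 8.59% at 16 weeks and 7.39 ± 8.07% at 12 weeks. IGHV2 took 7.59 ± 5.23% at 16 weeks and 10.7 ± 10.3% at 12 weeks, and IGHV3 took 8.005 ± 5.93% at 16 weeks and 6.54 ± 4.21% at 12 weeks. The smaller IGHV6 took 6.12 ± 12.7% at 16 weeks and 5.39 ± 4.77% at 12 weeks, and the 16-week median was 0.575%, since Ighv6-6 in replicate 2 made up most of it. IGHV7 took 2.985 ± 2.88% at 16 weeks and 3.36 ± 3.98% at 12 weeks, and IGHV8 took 2.27 ± 1.67% at 16 weeks and 0.793 ± 1.02% at 12 weeks.

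None of the 8 families with a mean share of at least 1% passed the test between ages. The lowest exact permutation p values, two-sided, were those of IGHV8 (p = 0.106, a difference of 1.47 percentage points) and IGHV5 (p = 0.165, a difference of -5.52 percentage points), with an adjusted p of 0.658 for each over the 8 families. IGHV13 stayed under 1% on average, yet its single member Ighv13-2 reached 5.655% in MRL/lpr at 12 weeks replicate 4. IGHV4, IGHV12 and IGHV16 had rows in the table but no member.

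**Figure D4:**
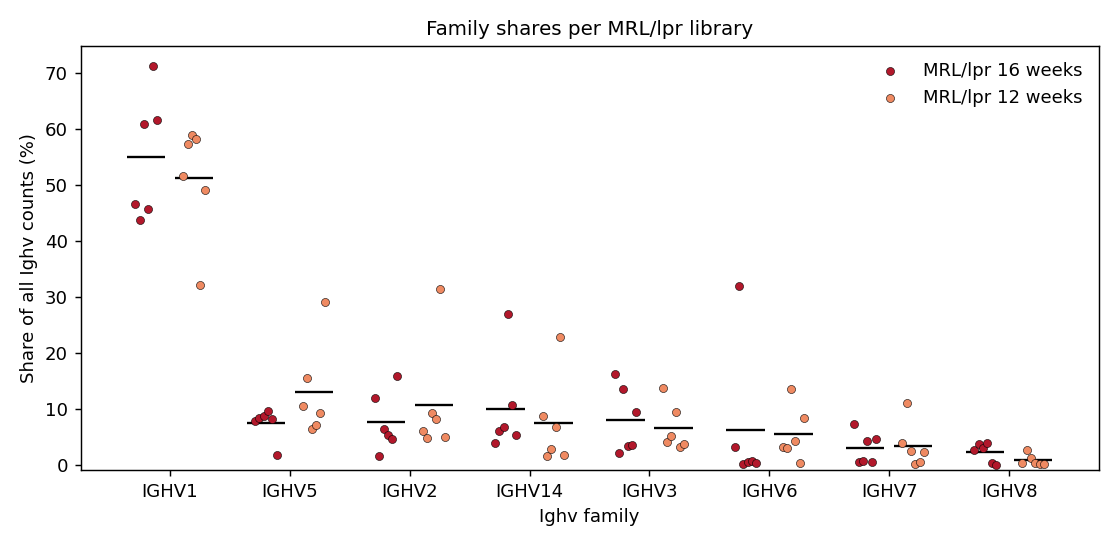
Share of all Ighv counts, in percent, of the 8 families with a mean of at least 1% in MRL/lpr, by age; points are libraries and lines are means. IGHV1 leads in every library, and the highest single shares of other families are those of IGHV6 (31.9%), IGHV2 (31.5%), IGHV5 (29.0%) and IGHV14 (26.8%).

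Use was spread over the whole locus. Cut into 3 stretches of equal length, the stretch nearest to the constant regions holds 67 rows and 33 members and took 36.1 ± 11.6% of Ighv counts at 16 weeks and 42.0 ± 13.8% at 12 weeks (SD, n = 6 each). The middle stretch, with 71 rows and 30 members, took 37.8 ± 16.3% at 16 weeks and 33.7 ± 13.5% at 12 weeks. The far stretch, with 45 rows and 25 members of families IGHV1 and IGHV8 alone, took 26.05 ± 9.15% at 16 weeks and 24.3 ± 7.59% at 12 weeks. Only these means lay near the shares of rows, 36.6%, 38.8% and 24.6%. Single MRL/lpr libraries departed widely, from 19.2 to 67.3% in the nearest stretch, 14.4 to 62.4% in the middle and 17.9 to 42.6% in the far one. Of the 5 leading segments, Ighv5-9 lies 83.3 kb, Ighv14-4 598 kb, Ighv6-6 856 kb, Ighv1-14 1068.1 kb and Ighv1-82 2374.0 kb from the member nearest to the constant regions.

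**Figure D5:**
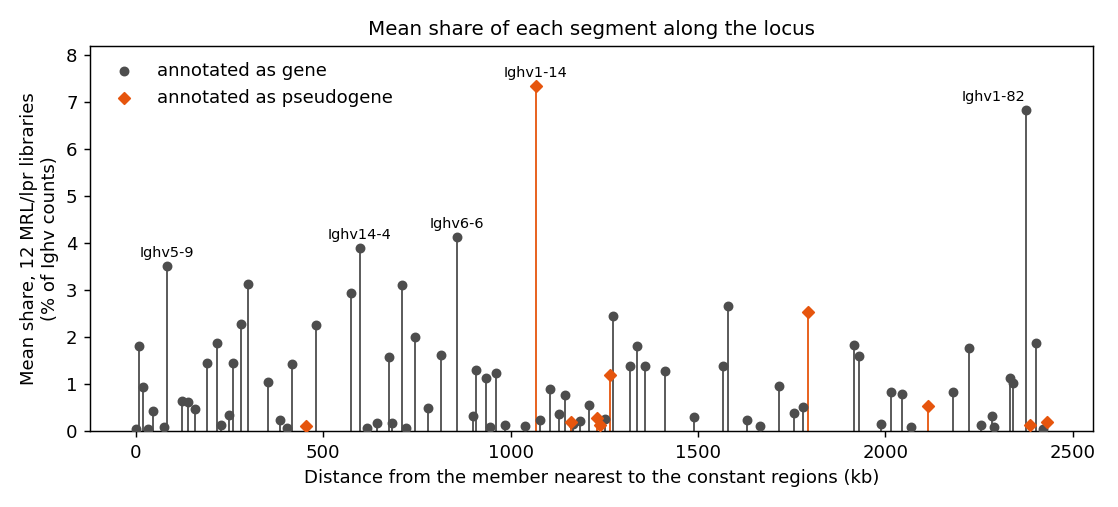
Mean share of Ighv counts over the 12 MRL/lpr libraries, in percent, against the distance in kb from the member nearest to the constant regions; each stem is 1 of the 88 members, and diamonds are annotated pseudogenes. Members in use lie along all 2431.6 kb, with Ighv1-14 (7.36%) and Ighv1-82 (6.835%) the tallest stems.

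Segment by segment, no member was called between the ages of MRL/lpr. Counts were tested with edgeR's quasi-likelihood test over all 16598 genes that passed a filter on low counts, with Benjamini-Hochberg adjustment, and 67 of the 88 members passed the filter. At an adjusted p under 0.05, 0 members were called higher and 0 lower at 16 than at 12 weeks in MRL/lpr, where 0.0181% of all genes were called higher, 0.0181% lower and 0.0361% in all. DESeq2 also called 0. The unadjusted edgeR p was under 0.05 for 19 members. The share of all genes at that unadjusted threshold is not given here, so the 19 have no background beside them. These fold changes are scaled to the whole library and not to its Ighv counts. They take in the 2.25 ratio of the summed levels and do not measure a change in usage. The median log2 fold change of the tested members was 1.08, against 0.0173 for all genes. Ighv1-82 had a log2 fold change of 2.24 (SE 0.79, adjusted p = 0.56) and Ighv1-14 one of 1.08 (SE 0.75, adjusted p = 0.81). Ighv6-6 had 3.21 (SE 1.503, adjusted p = 0.73) and Ighv5-9 -1.81 (SE 1.128, adjusted p = 0.79). In MRL/+ edgeR and DESeq2 called 0 members between the ages, edgeR called 0% of all genes, and no member had an unadjusted edgeR p under 0.05. The interaction of strain and age gave 0 calls among the members with edgeR and none at an unadjusted p under 0.05, and it called 0% of all genes. The MRL/+ libraries held 69 Ighv counts together, and 55 of the 88 members had none there. The MRL/+ age test and the interaction could therefore hardly detect a change of a segment, and their 0 calls are no result about the segments.

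Against MRL/+, 36 of the 67 tested members were called higher in MRL/lpr at 16 weeks and 0 lower, where 8.49% of all genes were called higher, 2.64% lower and 11.1% in all. At 12 weeks 16 were called higher and 0 lower, where 5.01% of all genes were called higher, 1.34% lower and 6.36% in all. Members pass both the sum and the filter through their MRL/lpr counts, so these counts are a description and support nothing. They also rest on few MRL/+ counts. At 16 weeks the count was 8, 8 and 4 without MRL/+ replicates 1, 2 and 3, it was 23 without MRL/lpr replicate 1 and 23 without MRL/lpr replicate 4, and 1 without the libraries highest in muscle, cerebellar and pineal genes, whereas DESeq2 called 63. At 12 weeks the count was 0, 2 and 2 without MRL/+ replicates 1, 2 and 3 and 0 without the same libraries, and DESeq2 called 53. The shares of all genes called in these alternative fits are not given here, so these counts have no background beside them. The part of the neighbouring tissue genes in these counts was not tested. The strain comparisons at both ages and the age comparisons share libraries.

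The 69 Ighv counts of the MRL/+ libraries were spread over many segments. At 16 weeks the libraries had 9, 10 and 10 segments among 10, 12 and 11 counts, and at 12 weeks 6, 14 and 7 segments among 7, 22 and 7. Of the 88 members, 55 had no MRL/+ count. Summed over both ages, IGHV1 had 22 of 69 counts, 31.9% (95% Wilson interval 22.1 to 43.6%), and IGHV14 12 of 69, 17.4% (10.2 to 28.0%). Library by library, the IGHV1 share was 50, 33.3 and 9.09% in MRL/+ at 16 weeks and 14.3, 40.9 and 28.6% at 12 weeks, against 32.2 to 71.2% in the MRL/lpr libraries, so the strains overlapped. The intervals of the summed shares cover counting error and not this spread between libraries, and no test of the families between the strains was made on so few counts. In MRL/+ at 12 weeks replicate 2, Ighv6-6 had 7 of 22 counts, 31.8% (16.4 to 52.7%).

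Ighv6-6 was therefore on top in 3 libraries, and in those 3 the kappa light chain segment with the most counts was Igkv10-96, which was singled out after its values were seen. Igkv10-96 had 24.9% of Igkv counts in MRL/lpr at 16 weeks replicate 2 (7432 of 29808) and 10.98% in MRL/lpr at 12 weeks replicate 3 (668 of 6085). It had 19.0% in MRL/+ at 12 weeks replicate 2 (8 of 42). With 7 counts of Ighv6-6 and 8 of Igkv10-96 in that MRL/+ library, no pair shared between the strains can be read from it. In the other 10 MRL/lpr libraries it had 1.73 to 14.6%, the highest in MRL/lpr at 12 weeks replicate 4. It was also the top kappa segment of MRL/+ at 16 weeks replicate 2, with 5 of 23 Igkv counts. In MRL/+ at 12 weeks replicate 3 it had 2 of 15 counts, level with Igkv12-46. Whether the chains come from the same cells cannot be read from whole tissue. Across libraries, heavy and light chain diversity were not detectably related. The effective number of Ighv segments and that of Igkv segments had Pearson's r 0.311 and Spearman's rho 0.175 over the 12 MRL/lpr libraries (permutation p = 0.325 and 0.586, adjusted p = 0.644 and 0.703 over 6 relations). Without the 2 libraries farthest from the median, r was 0.512. Within ages r was 0.462 at 16 weeks and 0.488 at 12 weeks (exact permutation p = 0.390 and 0.329, n = 6 each). The summed Ighv level and the effective number had r -0.240 and rho -0.413 (permutation p = 0.448 and 0.183, adjusted p = 0.644 and 0.703), and r -0.403 without the 2 farthest libraries. Within ages that r was -0.309 at 16 weeks and -0.110 at 12 weeks (exact permutation p = 0.537 and 0.814).

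The rest of the antibody pathway was counted over gene lists beside the V segments. Of 8 heavy chain constant regions, 7 were called higher in MRL/lpr than in MRL/+ at 16 weeks and 6 at 12 weeks, and 0 lower, with median log2 fold changes of 9.04 and 8.15, against 0.0251 and -0.0128 for all genes. Of all genes tested, 8.49% were called higher and 2.64% lower at 16 weeks, and 5.01% higher and 1.34% lower at 12 weeks. Ighg1, the constant region of IgG1, averaged 1070.0 ± 844 CPM in 16-week MRL/lpr and 1.22 ± 0.278 in 16-week MRL/+ (log2 fold change 9.76, SE 1.48, edgeR adjusted p = 0.0014). Ighg2c averaged 811 ± 753 CPM in 16-week MRL/lpr and 0.969 ± 0.0980 in 16-week MRL/+ (9.70, SE 1.53, edgeR adjusted p = 0.0016). Ighm, used before class switching, averaged 153 ± 152 CPM in MRL/lpr and 2.515 ± 0.603 in MRL/+ (5.93, SE 1.23, edgeR adjusted p = 0.0057), and without the libraries highest in pineal, cerebellar and muscle genes its adjusted p was 0.051 (edgeR). The shared parts of the IgG constant regions make their counts uncertain against each other.

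Most genes listed for the cells that transcribe V segments were higher as well. Of 11 B cell genes tested, 10 were called higher in MRL/lpr at 16 weeks and 9 at 12 weeks, and of 12 plasma cell genes 8 at each age, with 0 lower. The plasma cell genes Sdc1, Xbp1, Creld2 and Fkbp11 were called at neither age. Their log2 fold changes at 16 weeks were 0.74, -0.011, 0.16 and -0.19 (edgeR adjusted p = 0.19, 0.97, 0.65 and 0.51). Among all genes tested, 8.49% were called higher at 16 weeks and 5.01% at 12 weeks. Ms4a1, the B cell surface protein CD20, averaged 14.3 ± 12.55 CPM in 16-week MRL/lpr and 0.0883 ± 0.00886 in 16-week MRL/+ (edgeR adjusted p = 0.0030). Jchain, the chain that joins secreted IgA and IgM, averaged 1144.0 ± 850 CPM in MRL/lpr and 2.455 ± 1.09 in MRL/+ (log2 fold change 8.87, SE 1.06, edgeR adjusted p = 0.00041). Of 6 transcription factors and coactivators of V promoters, 3 were called higher at 16 weeks and 2 at 12 weeks, and Pou2af1 is also counted among the plasma cell genes. Pou2af1, the B cell coactivator of octamer-binding factors, averaged 21.8 ± 17.7 CPM in 16-week MRL/lpr and 0.162 ± 0.210 in 16-week MRL/+ (log2 fold change 6.90, SE 1.32, edgeR adjusted p = 0.0036). Pou2f2, an octamer-binding factor of B cells, averaged 10.96 ± 8.10 CPM in MRL/lpr and 0.899 ± 0.208 in MRL/+ (log2 fold change 3.59, SE 0.75, edgeR adjusted p = 0.0059). Without the libraries highest in pineal, cerebellar and muscle genes neither passed, with edgeR adjusted p = 0.058 for Pou2af1 and 0.071 for Pou2f2. Ikzf1, a lymphocyte transcription factor, was the third called at 16 weeks (log2 fold change 4.91, SE 0.85, edgeR adjusted p = 0.0024).

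Genes that build and mutate V regions were counted in the same way. Of 8 V(D)J recombination and end joining genes tested, edgeR called 0 higher or lower in MRL/lpr at either age, where 11.1% of all genes were called at 16 weeks and 6.36% at 12 weeks. In a list this short, 0 calls is near that background and is no result about these genes. The recombinase genes Rag1 and Rag2 had 0 to 3 counts per library in every group and were too low to test. Lig4, the ligase that closes the joined ends, averaged 11.9 ± 1.23 CPM in 16-week MRL/lpr and 17.1 ± 1.85 in 16-week MRL/+ (log2 fold change -0.52, SE 0.17, edgeR adjusted p = 0.055), and DESeq2 called it lower (adjusted p = 0.042). Of 10 somatic hypermutation and class switching genes tested, edgeR called 0 at either age, which is near the same background. Of the pre-B cell receptor genes, Igll1 and Vpreb1 were tested and edgeR called neither. Vpreb1, the surrogate light chain partner, averaged 12.35 ± 3.79 CPM in 16-week MRL/lpr and 18.65 ± 2.04 in 16-week MRL/+ (edgeR adjusted p = 0.12, and 0.038 without MRL/lpr at 16 weeks replicate 5), and it overlaps Top3b on the chromosome, so its counts may hold reads of that gene. Between 16 and 12 weeks in MRL/lpr, edgeR called 0 genes of these lists, where it called 0.0361% of all genes. Those 0 calls are near that background and are no result about the lists. Median log2 fold changes were 0.805 for the constant regions, 0.732 for plasma cells and 0.315 for B cells, against 0.0173 for all genes.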

How the data were processed

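RNA of the choroid plexus was sequenced on 18 libraries, with total counts of 11164284 to 14602253. The authors deposited raw counts for each gene in each library. Per the submitters' processing notes, GRCm38, STAR 2.5.3a, featureCounts 1.26.0 and DESeq2 1.16.1 were used. The annotation release, the strand setting and the handling of reads with several alignments: not given in the sources used here.

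The counts were analysed with edgeR 4.0.16 (TMM scaling, filterByExpr, robust quasi-likelihood test with 1 mean per group over all 18 libraries, Benjamini-Hochberg adjustment over 16598 genes) and DESeq2 1.42.0 as an alternative, in R 4.3.3. CPM are counts scaled to the TMM-adjusted library size. Shares, the inverse unbiased Simpson index, rarefaction to 279 reads, Morisita-Horn overlap and exact permutation tests over libraries were computed with Python 3.11.15 and scipy 1.17.1 over all 183 Ighv rows. Sequences and gene or pseudogene status came from GENCODE M21 transcripts on GRCm38. The fits and indices were tested on simulated data. Of 36 pairs of libraries within groups, the smallest chi-square per gene was 5.61, so none was counted as a repeat of another. Alternatives were other scaling, filtering and tests, a replicate block, each library left out in turn, and without the 4 libraries highest in pineal, cerebellar and muscle genes.

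The members and the 11 gene lists (B cells, plasma cells, heavy chain constant regions, V(D)J recombination and end joining, pre-B cell receptor, somatic hypermutation and class switching, V promoter activators, pineal gland, cerebellum, skeletal muscle and pituitary) were chosen with earlier results of these data known. The segments named are the top segment of each library, the 10 highest mean shares in MRL/lpr, those called between ages, and 3 on each side of the 50-count limit. From the lists, up to 3 genes with the smallest p at 16 weeks were eligible, with Rag1, Rag2 and the main constant regions; 1 further gene of the rule is not reported here. Ighv2-6-8, Ighv13-2, Ighv1-33, Ighv1-70, the 4 members found in fewest libraries and Igkv10-96 were named after their values were seen.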

Additional observations from a re-analysis of the deposited data

Results flagged for a closer look

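In a group of 6 libraries, a library was taken as standing apart when its gap to the next one was large against the range of the group by Dixon's test. Of 28 groups tested, 9 had such a library. The test flags about 1 in 20 groups by chance where values are independent and normally distributed. Shares of the same reads are not, and some libraries were flagged more than once, so the 9 cannot be set against that rate. The summed Ighv level of MRL/lpr at 12 weeks replicate 6 was 664.8 CPM, and the next highest was 341.9. The top segment of MRL/lpr at 16 weeks replicate 2, Ighv6-6, held 31.27% of Ighv counts, and the next highest top share was 16.21%. The same library had 31.86% of its counts in family IGHV6, with 3.151% in the next.

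MRL/lpr at 12 weeks replicate 5 stood apart in 3 families. It had 32.16% IGHV1, where the next lowest had 49.13%, 31.46% IGHV2, where the next highest had 9.143%, and 22.77% IGHV14, where the next highest had 8.732%. In MRL/lpr at 16 weeks replicate 4, IGHV14 took 26.83%, with 10.63% in the next. IGHV7 took 10.99% in MRL/lpr at 12 weeks replicate 2, with 3.943% in the next. IGHV5 took 1.792% in MRL/lpr at 16 weeks replicate 6, where the next lowest had 7.823%, and that library had 279 Ighv counts in all.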

How the results depend on the processing

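The comparisons between ages in MRL/lpr kept their side of the threshold under each alternative tried: 0 members called, and no diversity, dominance, family or similarity test passed. Leaving out 1 library at a time moved the effective number difference between -4.932 and -1.225, the top share difference between 1.472 and 5.417 points, the rarefied difference between -1.315 (without MRL/lpr at 12 weeks replicate 5, direction turned) and 1.972, and the similarity difference between -0.008654 (without MRL/lpr at 12 weeks replicate 6) and 0.02646, with -0.00352 without MRL/lpr at 16 weeks replicate 4. Both of the last 2 turned the direction. Without the libraries highest in pineal, cerebellar and muscle genes the effective number difference was -0.3436, the top share difference 2.188 points and the rarefied difference 2.174. The count of family calls stayed at 0.

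The count of members called against MRL/+ moved most. At 16 weeks, 36 became 16 with no filter on low counts, 1 without the libraries highest in pineal, cerebellar and muscle genes and 63 with the DESeq2 test, and 4 to 48 with 1 library left out. At 12 weeks, 16 became 3, 0 and 53 under the same alternatives, and 0 to 19 with 1 library left out. The cause of these moves was not tested, and the shares of all genes called in these fits are not given here. The ratio of summed levels ran from 535.2 to 813.9 at 16 weeks and from 241.6 to 629.0 at 12 weeks with 1 library left out, the last an alternative chosen after seeing the data. Of 322 values of 23 list genes under the alternatives, 317 kept their side of the threshold, 3 lost it, 2 gained it and 0 turned direction. Ighm, Pou2af1 and Pou2f2 lost it without the libraries highest in pineal, cerebellar and muscle genes, and Lig4 (DESeq2 test) and Vpreb1 (without MRL/lpr at 16 weeks replicate 5) gained it.

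Same-numbered libraries did not deviate together (correlations of -0.619 to 0.450 over 6 pairs of MRL/lpr ages), so the numbers were not taken to pair the libraries. With a replicate block, 25 members were called at 16 weeks and 12 at 12 weeks against MRL/+, and 0 between ages in either strain. The shares of all genes called with the block are not given here. The paired exact tests gave p = 0.4062 for the effective number, 0.9062 for the rarefied number and 0.3125 for the top share. The block cannot be applied to the summed levels or the similarity, which come from no paired fit. Depth limits the MRL/+ libraries, where 7 to 22 Ighv counts leave most segments below detection.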
